A study of Mus musculus with 6 samples.

Results

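Expression of 10 genes of fatty acid uptake, the carnitine shuttle and mitochondrial oxidation was followed in injured mouse muscle. They were Lpl, Gpihbp1, Cd36, Fabp3, Cpt1a, Cpt1b, Cpt2, Acadm, Hadha and Ucp3. They were taken by symbol as 10 of the 25572 genes in the deposited table, and 9 of the 10 averaged 0.5 FPKM or more across all 6 libraries and entered the test. Cpt1b did not pass that limit and is described by its values. The RNA was that of skeletal muscle from the hind limb of 3 HDCKO mice (Hdc-/-, lacking histidine decarboxylase, the enzyme that makes histamine) and 3 wild-type (WT) mice, with 1 library per numbered mouse. All 6 mice, controls included, carried the treatment label HLI, hind limb ischaemia, a surgical cut in the blood supply of the leg, and were sampled 3 days after surgery. Every level is therefore set against operated WT muscle, and no unoperated muscle was analysed here. Mouse age, strain and sex, the muscle and leg taken, and the part of Hdc that the mutants lack are not given in the labels used here.

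Muscle fibres burn fatty acids that reach them from lipoproteins and fat stores. Lipoprotein lipase frees fatty acids from triglyceride at the capillary wall, CD36 helps them across membranes, and cytosolic binding proteins carry them to the mitochondrion. There the acyl-CoA is turned into acylcarnitine by CPT1 on the outer membrane, the step that malonyl-CoA inhibits, carried across the inner membrane, and turned back by CPT2 for beta-oxidation. CPT1 has a liver-type isoform, encoded by Cpt1a and used in many cell types, and a muscle-type isoform, encoded by Cpt1b.

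FPKM, which counts fragments per length of transcript and per total of the library and so scales for both, lets levels of different genes be set side by side. Fragment numbers were recovered by writing the FPKM values of a gene as whole multiples of what 1 fragment is worth, within 0.02 fragments. A solution was found for 21069 of 21070 genes with at least 3 values above 0. Where few values are above 0, almost any numbers can be written so, and that count does not test the recovery. For the 10 genes the largest deviation was 1.6e-05 fragments. The recovered fragments summed to 28114990 to 36193457 in HDCKO libraries and 31349814 to 36476234 in WT libraries. Hdc itself had 1.22, 2.46 and 2.52 FPKM in HDCKO mice 1, 2 and 3, against 7.49, 7.72 and 8.17 FPKM in WT mice 1, 2 and 3, so transcript was lower but detected in every HDCKO library. The 15 mature muscle fibre markers were above 0 in all 6 libraries, and their summed level was 52166 to 95777 FPKM in HDCKO and 446 to 1708 FPKM in WT muscle. The summed level of 12 macrophage markers was 292 to 2115 FPKM in HDCKO and 2338 to 3024 FPKM in WT muscle, and that of 10 neutrophil markers was 32.5 to 70.7 FPKM in HDCKO and 2417 to 14355 FPKM in WT muscle. In bulk muscle, fewer cells of a type and less RNA per cell cannot be told apart.

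Of the 9 genes tested, 5 rose in HDCKO muscle (Fabp3, Ucp3, Acadm, Hadha and Cpt2), 1 fell (Cpt1a) and 3 did not pass (Lpl, Gpihbp1 and Cd36), at an adjusted p under 0.05 in limma, a linear model fitted to all 13288 genes tested. Across all genes tested, 17.8% were called higher and 42.6% lower, 60.4% in all, so a called change is not in itself uncommon in these samples. Groups did not overlap for 7 of the 9 genes, 6 higher in HDCKO and 1 lower, where 21.2% of all genes tested were entirely higher and 51.4% entirely lower. The median log2 change over the 9 genes was 1.13, against -0.50 over all genes tested. That median of all genes was -0.03 after median-of-ratios scaling of the libraries, with which 3532 genes were called higher and 3457 lower in place of 2362 and 5658. Without 1 library, the number called lower ran from 2507 (without HDCKO mouse 2) to 7288 (without HDCKO mouse 3), and was 2978, 3111 and 2799 without WT mice 1, 2 and 3.

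**Figure D1:**
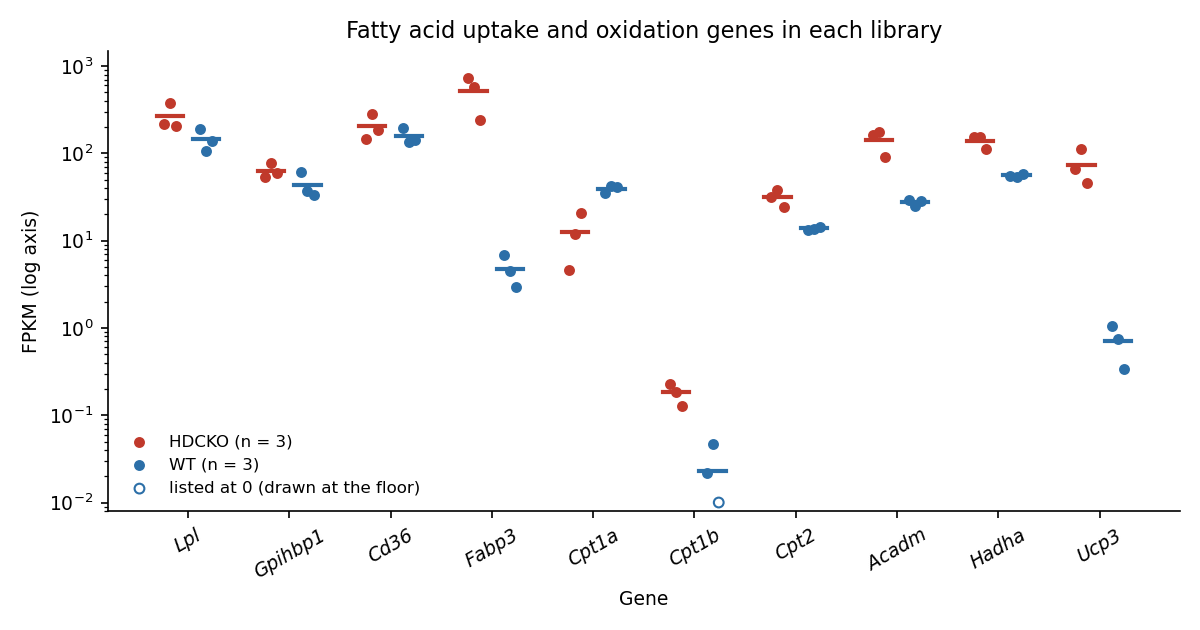
FPKM (log axis) of the 10 genes in each library, with HDCKO mice in red, WT mice in blue, 1 point per mouse in the order 1, 2, 3 and a bar at the group mean (n = 3). Fabp3 and Ucp3 lie far higher in every HDCKO library, Cpt1a lies lower in every HDCKO library, and the HDCKO and WT points of Gpihbp1 and Cd36 overlap; the open circle is the WT library in which Cpt1b was listed at 0.

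**Figure D2:**
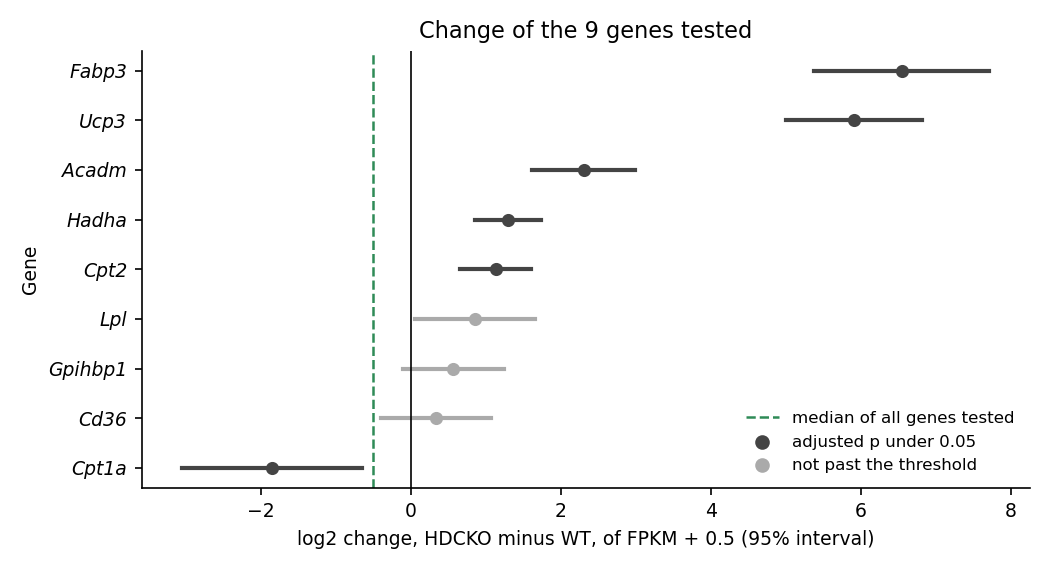
Log2 change (HDCKO minus WT, of FPKM + 0.5) of the 9 genes tested, with 95% intervals from limma; black points had an adjusted p under 0.05, grey points did not, and the dashed line is the median of all genes tested, -0.50. The changes run from 6.54 for Fabp3 to -1.85 for Cpt1a, and the intervals of Gpihbp1 and Cd36 include 0.

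Promoters are shown for Fabp3 and Ucp3, the genes with the greatest rises of the 9, and for Cpt1a, the gene that fell. The windows run from 250 bases before to 50 bases after the RefSeq start site, come from RefSeq sequences of GRCm38.p6 and each matched GRCm39 exactly once, at chr4:130202281-130202580 (plus strand) for Fabp3, chr7:100121948-100122247 (plus strand) for Ucp3 and chr19:3373051-3373350 (plus strand) for Cpt1a. Capitals mark 2 motifs searched on both strands: AGGTCA, the half-site of nuclear receptors such as the PPARs, which reads as TGACCT when it lies on the other strand, and CAGCTG, an E-box bound by myogenic factors.
Fabp3: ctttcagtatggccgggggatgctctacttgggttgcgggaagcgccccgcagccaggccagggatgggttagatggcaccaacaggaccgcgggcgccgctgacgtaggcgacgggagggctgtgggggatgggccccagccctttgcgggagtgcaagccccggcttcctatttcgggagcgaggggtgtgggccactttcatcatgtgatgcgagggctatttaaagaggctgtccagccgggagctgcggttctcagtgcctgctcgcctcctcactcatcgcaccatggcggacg
Ucp3: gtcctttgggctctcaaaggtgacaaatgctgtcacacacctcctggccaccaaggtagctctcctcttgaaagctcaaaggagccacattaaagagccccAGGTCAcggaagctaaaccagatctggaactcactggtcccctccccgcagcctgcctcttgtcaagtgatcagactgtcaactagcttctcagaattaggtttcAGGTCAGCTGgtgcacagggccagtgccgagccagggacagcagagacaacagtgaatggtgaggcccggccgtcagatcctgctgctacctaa
Cpt1a: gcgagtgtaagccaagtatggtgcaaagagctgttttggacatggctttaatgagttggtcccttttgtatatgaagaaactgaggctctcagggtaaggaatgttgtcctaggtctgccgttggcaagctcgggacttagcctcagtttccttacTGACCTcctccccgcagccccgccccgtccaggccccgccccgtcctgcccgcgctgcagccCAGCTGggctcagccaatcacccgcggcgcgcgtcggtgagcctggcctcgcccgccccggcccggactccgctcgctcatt
The Ucp3 window held AGGTCA starting 149 and 44 bases before the start site and CAGCTG starting 40 bases before it, the last overlapping the second half-site. The Cpt1a window held TGACCT 94 bases and CAGCTG 32 bases before the start site, and the Fabp3 window held neither motif. RefSeq windows were matched for 7 of the 10 genes, all but Lpl, Gpihbp1 and Cpt1b. The half-site was present in 4 of the 7 (Acadm, Cd36, Cpt1a and Ucp3), against 16.3% of 32851 mouse promoter windows of the same length. CAGCTG was present in 2 of the 7, against 16.3% of windows. None of the 7 held DR1, the direct repeat of AGGTCA with 1 base between the copies, present in 0.0396% of windows. None held CTA, any 4 bases and TAG, a looser pattern than the MEF2 motif, present in 3.69% of windows.

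The lipase and its anchor came first in the path, and neither passed the test. Lpl (ENSMUSG00000015568, chr8:69284603-69360100 on GRCm39, plus strand), the secreted lipase, had 215, 379 and 206 FPKM in HDCKO mice 1, 2 and 3, against 192, 106 and 138 FPKM in WT mice 1, 2 and 3. Every HDCKO library was above every WT library, the nearest being 206 FPKM in HDCKO mouse 3 and 192 FPKM in WT mouse 1. Lpl averaged 267 ± 97.7 FPKM in HDCKO and 145 ± 43.6 FPKM in WT muscle (SD, n = 3 each). Its log2 change was 0.86 (SE 0.33, 95% interval 0.05 to 1.66, limma adjusted p = 0.0634). After median-of-ratios scaling the change was 1.39 and passed (limma adjusted p = 0.0253). Lpl passed as well after quantile normalization (1.11) and with fibre and mitochondrial genes left out of the library sum (1.26). It also passed without HDCKO mouse 3 (1.01). Of the alternatives tried, Lpl passed in 5 and did not pass in 10. The smallest change was that without HDCKO mouse 2 (0.57, limma adjusted p = 0.18).

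Gpihbp1 (ENSMUSG00000022579, chr15:75468474-75471331, plus strand), the endothelial protein that carries the lipase to the capillary lumen and holds it there, had 54.1, 77.3 and 59.1 FPKM in HDCKO mice 1, 2 and 3, against 61.6, 37.1 and 33.1 FPKM in WT mice 1, 2 and 3. WT mouse 1 was higher than HDCKO mice 1 and 3, so the groups overlapped. Gpihbp1 averaged 63.5 ± 12.2 FPKM in HDCKO and 43.9 ± 15.5 FPKM in WT muscle (SD, n = 3 each), a log2 change of 0.56 (95% interval -0.11 to 1.24, limma adjusted p = 0.12). It passed at 1.09 after median-of-ratios scaling, at 0.94 after quantile normalization, at 0.97 with fibre and mitochondrial genes left out of the sum and at 0.83 without WT mouse 1. Of the 15 alternatives, Gpihbp1 passed in 5 and did not pass in 10, with the smallest change without WT mouse 3 (0.39, limma adjusted p = 0.314). The 12 endothelial markers summed to 243, 298 and 357 FPKM in HDCKO mice 1, 2 and 3, against 661, 696 and 477 FPKM in WT mice 1, 2 and 3, and 7 of the 12 were called lower and 0 higher. Set against the mean log2 level of those markers in the same library, Gpihbp1 stood 1.39 higher in HDCKO muscle, with groups that did not overlap (exact permutation p = 0.1, the smallest that 3 against 3 allows; adjusted p = 0.133 over 12 such comparisons). The log2 ratio of Lpl to Gpihbp1 was 1.98, 2.29 and 1.79 in HDCKO mice 1, 2 and 3, against 1.63, 1.50 and 2.04 in WT mice 1, 2 and 3, and the groups overlapped (difference 0.29, exact permutation p = 0.3).

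The membrane and cytosolic carriers parted. Cd36 (ENSMUSG00000002944, chr5:17986432-18094067, minus strand), the membrane fatty acid translocase, had 145, 284 and 183 FPKM in HDCKO mice 1, 2 and 3, against 198, 134 and 141 FPKM in WT mice 1, 2 and 3. The groups overlapped, with WT mouse 1 above HDCKO mice 1 and 3, and the log2 change was 0.33 (95% interval -0.40 to 1.07, limma adjusted p = 0.361). The interval allows a difference in either direction, and a p that misses the threshold does not show equal levels.

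HDCKO mouse 2 held the highest Lpl, Gpihbp1 and Cd36 of all 6 libraries. The same library had the highest sum of 8 adipocyte markers, which was 222, 1667 and 614 FPKM in HDCKO mice 1, 2 and 3, against 529, 336 and 264 FPKM in WT mice 1, 2 and 3. None of the 8 adipocyte markers was at 0 in any library and 0 of 8 were called. Relative to the mean log2 level of that list, Lpl differed by 0.38 between HDCKO and WT muscle with overlapping groups (exact permutation p = 0.9), and by -0.23 without HDCKO mouse 1. The part of adipocyte RNA in these 3 genes was not tested beyond these values.

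Fabp3 (ENSMUSG00000028773, chr4:130202388-130209259, plus strand), the fatty acid binding protein of heart and skeletal muscle, rose in HDCKO muscle. It had 735, 569 and 242 FPKM in HDCKO mice 1, 2 and 3, against 6.91, 4.44 and 2.93 FPKM in WT mice 1, 2 and 3. The lowest HDCKO library stood far above the highest WT library, and the WT values rested on 150, 112 and 74 fragments. Mean levels were 515 ± 251 FPKM in HDCKO and 4.76 ± 2.01 FPKM in WT muscle (SD, n = 3 each), a 108-fold ratio of means, with a log2 change of 6.54 (SE 0.48, limma adjusted p = 3.8e-04). Its change and that of Ucp3 were the greatest of the 9, and their order depended on the method: with 0.5 FPKM added Fabp3 was ahead, 6.54 against 5.90 for Ucp3, while limma-voom on the recovered fragments gave 6.77 and 6.83. The 15 fibre markers ran in the same order, with 95777, 81615 and 52166 FPKM in HDCKO mice 1, 2 and 3, against 1708, 558 and 446 FPKM in WT mice 1, 2 and 3, and 15 of 15 were called higher, with a median log2 change of 6.77. Relative to their mean log2 level, Fabp3 differed by -0.40 between HDCKO and WT muscle with overlapping groups (exact permutation p = 0.3, adjusted p = 0.327 over 12 comparisons), and by 0.23 after quantile normalization. On the opposite strand, annotated exons of Gm10570 and Zcchc17 cover 66.5% of the Fabp3 exon bases, and the labels used here do not say whether strand was used in counting.

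The binding proteins of other cells did not follow Fabp3. Fabp4, best known in adipocytes and capillary endothelium, had 506, 1836 and 1192 FPKM in HDCKO mice 1, 2 and 3, against 2154, 1418 and 973 FPKM in WT mice 1, 2 and 3. The groups overlapped, and its log2 change of -0.47 did not pass (limma adjusted p = 0.473) and was 0.06 after median-of-ratios scaling. Fabp5, the epidermal-type protein also found in macrophages and endothelium, had 9.03, 24.3 and 62.4 FPKM in HDCKO mice 1, 2 and 3, against 98.7, 65.7 and 85.2 FPKM in WT mice 1, 2 and 3. Every HDCKO library was lower, but the log2 change of -1.75 did not pass (limma adjusted p = 0.0574), and it was -1.06 without HDCKO mouse 1 and passed at -2.42 without HDCKO mouse 3. Fabp4 was the most abundant of the 3 in every WT library, and Fabp3 was above Fabp4 in 1 library, HDCKO mouse 1. The log2 ratio of Fabp3 to Fabp4 was 0.54, -1.69 and -2.30 in HDCKO mice 1, 2 and 3, against -8.18, -8.17 and -8.15 in WT mice 1, 2 and 3, a difference of 7.01 (exact permutation p = 0.1, adjusted p = 0.114 over 8 ratios).

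**Figure D3:**
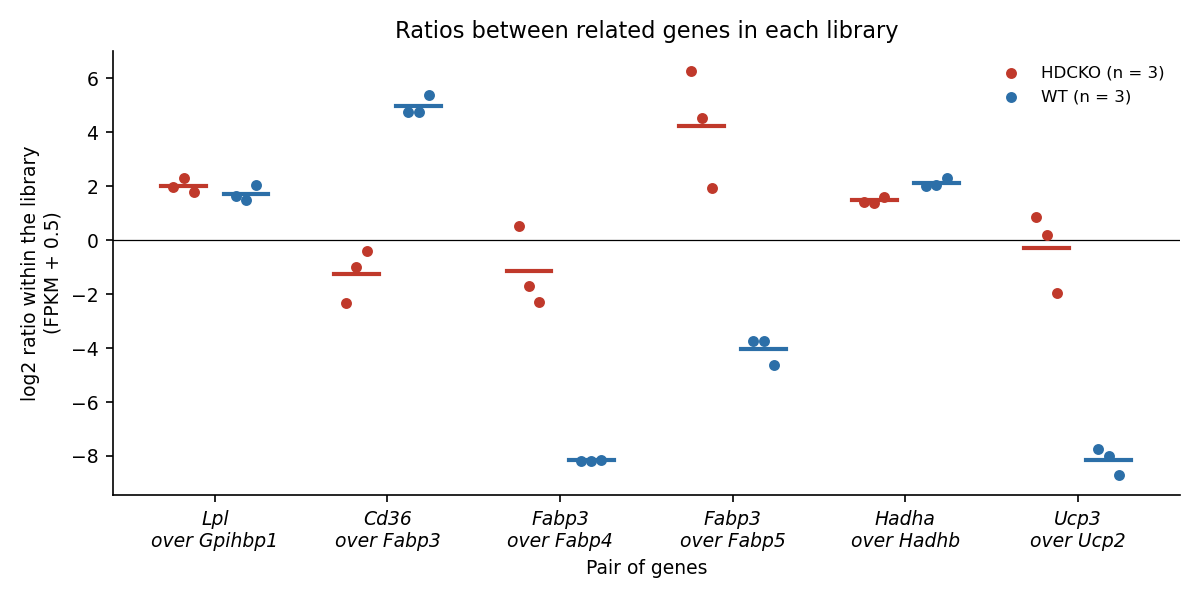
Log2 ratio of 2 related genes within each library, from FPKM + 0.5, for 6 of the 8 pairs compared, with HDCKO mice in red, WT mice in blue and a bar at the mean (n = 3). The Lpl to Gpihbp1 ratios overlap between the groups, while the Fabp3 to Fabp4 and Ucp3 to Ucp2 ratios lie apart by 7.01 and 7.86.

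Of the carnitine palmitoyltransferases, Cpt1a fell, Cpt2 rose and Cpt1b was too low to be tested. Cpt1a (ENSMUSG00000024900, chr19:3371853-3437996, plus strand), the liver-type palmitoyltransferase whose promoter is printed above, fell in HDCKO muscle. It had 4.67, 11.8 and 20.8 FPKM in HDCKO mice 1, 2 and 3, against 35.2, 42.1 and 41.0 FPKM in WT mice 1, 2 and 3. The WT values lay close together, the HDCKO values spread 4.45-fold from lowest to highest, and the groups did not overlap. Means were 12.4 ± 8.08 FPKM in HDCKO and 39.4 ± 3.69 FPKM in WT muscle (SD, n = 3 each), so that the HDCKO level was 31.5% of WT, with a log2 change of -1.85 (SE 0.49, limma adjusted p = 0.021). The call was lost without HDCKO mouse 2 (limma adjusted p = 0.0605) and without WT mouse 1 (0.0553), 2 (0.0653) or 3 (0.0653), while the change stayed between -2.32 and -1.30 over the 6 omissions.

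The summed markers of several other cell types were lower in HDCKO muscle along with Cpt1a, though not each marker. The macrophage sum was 292, 866 and 2115 FPKM in HDCKO mice 1, 2 and 3, the same order as Cpt1a, against 2789, 2338 and 3024 FPKM in WT mice 1, 2 and 3, and 7 of 12 were called lower and 0 higher, where 42.6% of all genes tested were called lower. Much of the macrophage sum was Lyz2, with 174, 494 and 1457 FPKM in HDCKO mice 1, 2 and 3, against 1436, 1425 and 1635 FPKM in WT mice 1, 2 and 3. Its groups overlapped and it was not called (log2 change -1.58, limma adjusted p = 0.104). C1qa and C1qb of the same list had log2 changes of -0.06 and -0.32 and were not called. The endothelial sums given above also kept the HDCKO order of Cpt1a, with 7 of 12 called lower. The 8 fibroblast markers summed to 1582, 1703 and 2325 FPKM in HDCKO mice 1, 2 and 3, against 5318, 2716 and 4700 FPKM in WT mice 1, 2 and 3. These sums too kept the HDCKO order of Cpt1a, but 2 of 8 markers were called lower, a smaller share than the 42.6% of all genes. Lum and Dpt, 2 of the 8, had log2 changes of 0.03 and 0.29 and were not called. None of the macrophage, endothelial and fibroblast markers was at 0 in any library. The 10 neutrophil markers summed to 32.5, 70.7 and 60.5 FPKM in HDCKO mice 1, 2 and 3, against 3902, 14355 and 2417 FPKM in WT mice 1, 2 and 3. Their HDCKO order was not that of Cpt1a, and 9 of the 9 tested were called lower. The part of any of these cell types in the Cpt1a level was not tested.

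Cpt2 (ENSMUSG00000028607, chr4:107751473-107780812, minus strand), the inner-membrane enzyme that hands the acyl group back to coenzyme A, rose. It had 31.4, 38.3 and 24.2 FPKM in HDCKO mice 1, 2 and 3, against 13.4, 13.5 and 14.5 FPKM in WT mice 1, 2 and 3. Every HDCKO library was above the tight WT range, with means of 31.3 ± 7.07 FPKM in HDCKO and 13.8 ± 0.612 FPKM in WT muscle (SD, n = 3 each). The log2 change was 1.13 (SE 0.19, limma adjusted p = 0.00568).

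Cpt1b (ENSMUSG00000078937, chr15:89300606-89310239, minus strand), the muscle-type isoform, was almost undetected in both groups. It had 0.231, 0.187 and 0.129 FPKM in HDCKO mice 1, 2 and 3, against 0.0216, 0.0466 and 0 FPKM in WT mice 1, 2 and 3. These values are 23, 16 and 14 fragments in HDCKO and 2, 5 and 0 fragments in WT libraries. Every HDCKO value was above every WT value, yet all 6 were below 0.25 FPKM in libraries where the fibre markers summed to at least 446 FPKM. Without the limit on low values its log2 change was 0.38 (limma adjusted p = 0.0126), a size held down by the 0.5 FPKM added before the logarithm.

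The annotation at this locus bears on the low value. Gm44502 (ENSMUSG00000116461, chr15:89300608-89313899, minus strand), a readthrough gene that joins Chkb to Cpt1b, covers 2744 of the 3054 exon bases of Cpt1b on the same strand (89.8%) and 81.0% of those of Chkb, which encodes choline kinase beta. Chkb had 0, 0 and 0.0909 FPKM in HDCKO mice 1, 2 and 3, against 0.0357, 0.0769 and 0.0154 FPKM in WT mice 1, 2 and 3. Gm44502 had 0.0128, 0.015 and 0.0176 FPKM in HDCKO mice 1, 2 and 3, against 0.0484, 0.0179 and 0.0119 FPKM in WT mice 1, 2 and 3. All 3 genes of the locus were thus listed near 0. The labels used here do not say how reads that fall in more than 1 gene were treated, so the Cpt1b values are uncertain. None of the other 9 genes shared an exon base with another gene on its own strand.

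**Figure D4:**
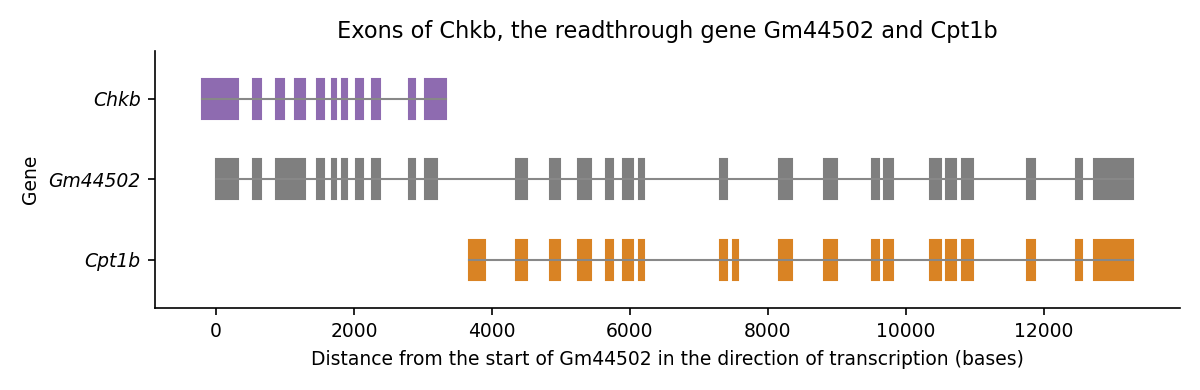
Exons (boxes) of Chkb, the readthrough gene Gm44502 and Cpt1b, drawn to scale in the direction of transcription as distance in bases from the start of Gm44502. Most exons of Chkb and of Cpt1b are also exons of Gm44502, which covers 89.8% of the Cpt1b exon bases.

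The ratio of Cpt1b to Cpt1a was 2.23 higher on the log2 scale in HDCKO muscle, and 3.10 higher with 0.1 in place of 0.5 FPKM added. Since the Cpt1b values are uncertain, so is this ratio. The level of Cpt1a was above that of Cpt1b in all 6 libraries as deposited.

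Both enzymes of beta-oxidation rose. Acadm (ENSMUSG00000062908, chr3:153627989-153650317, minus strand), the dehydrogenase that starts each round of oxidation on medium chains, had 163, 178 and 90.0 FPKM in HDCKO mice 1, 2 and 3, against 29.2, 24.7 and 28.6 FPKM in WT mice 1, 2 and 3. Groups did not overlap, with HDCKO mouse 3 lowest among the mutants. Its means were 143 ± 46.9 FPKM in HDCKO and 27.5 ± 2.48 FPKM in WT muscle (SD, n = 3 each), a 5.22-fold ratio, and its log2 change was 2.31 (SE 0.28, limma adjusted p = 0.00199).

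Hadha (ENSMUSG00000025745, chr5:30323302-30360187, minus strand), the alpha subunit of the trifunctional protein that carries out the later steps on long chains, had 153, 155 and 111 FPKM in HDCKO mice 1, 2 and 3, against 55.4, 53.4 and 58.7 FPKM in WT mice 1, 2 and 3. All 3 HDCKO libraries were above the WT range, with means of 140 ± 24.9 FPKM in HDCKO and 55.8 ± 2.71 FPKM in WT muscle (SD, n = 3 each) and a log2 change of 1.30 (SE 0.18, limma adjusted p = 0.00304). Hadhb, which encodes the beta subunit of the same complex, had 56.7, 58.7 and 36.6 FPKM in HDCKO mice 1, 2 and 3, against 13.6, 12.4 and 11.5 FPKM in WT mice 1, 2 and 3. It rose as well, by 1.95 on the log2 scale (limma adjusted p = 0.0014). The log2 ratio of Hadha to Hadhb was 1.43, 1.39 and 1.59 in HDCKO mice 1, 2 and 3, against 1.99, 2.06 and 2.30 in WT mice 1, 2 and 3, so it was 0.64 lower in HDCKO muscle without overlap (difference -0.64, exact permutation p = 0.1, adjusted p = 0.114 over 8 ratios). Exons of Garem2 and Hadhb on the opposite strand cover 53.8% of the Hadha exon bases, and the use of strand is not given.

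Ucp3 (ENSMUSG00000032942, chr7:100122136-100135976, plus strand), a carrier of the inner mitochondrial membrane that is mostly found in skeletal muscle and brown fat and that responds to fatty acid supply, rose with Fabp3. It had 66.2, 111 and 46.3 FPKM in HDCKO mice 1, 2 and 3, against 1.04, 0.749 and 0.341 FPKM in WT mice 1, 2 and 3. No HDCKO library came near the WT range, and the WT values rested on 81, 68 and 31 fragments. Means were 74.4 ± 33.0 FPKM in HDCKO and 0.709 ± 0.349 FPKM in WT muscle (SD, n = 3 each), a 105-fold ratio of means, with a log2 change of 5.90 (SE 0.37, limma adjusted p = 2.4e-04), damped by the 0.5 FPKM added to the low WT values. Relative to the 15 fibre markers, Ucp3 differed by -1.03 between HDCKO and WT muscle with overlapping groups (exact permutation p = 0.2, adjusted p = 0.24 over 12 comparisons). Its promoter, printed above, was alone among those of the 7 matched genes in holding the half-site more than once.

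Ucp2, the related carrier found in immune cells and many other tissues, went the other way. It had 36.3, 96.1 and 181 FPKM in HDCKO mice 1, 2 and 3, against 331, 322 and 352 FPKM in WT mice 1, 2 and 3. The log2 change was -1.96 (limma adjusted p = 0.0249), the HDCKO libraries kept the order seen for Cpt1a and the macrophage markers, and the call was lost without HDCKO mouse 2 (limma adjusted p = 0.068) or any 1 WT mouse (0.0677 to 0.074). The log2 ratio of Ucp3 to Ucp2 was 0.86, 0.20 and -1.95 in HDCKO mice 1, 2 and 3, against -7.75, -8.01 and -8.71 in WT mice 1, 2 and 3, a difference of 7.86 (exact permutation p = 0.1, adjusted p = 0.114 over 8 ratios).

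**Figure D5:**
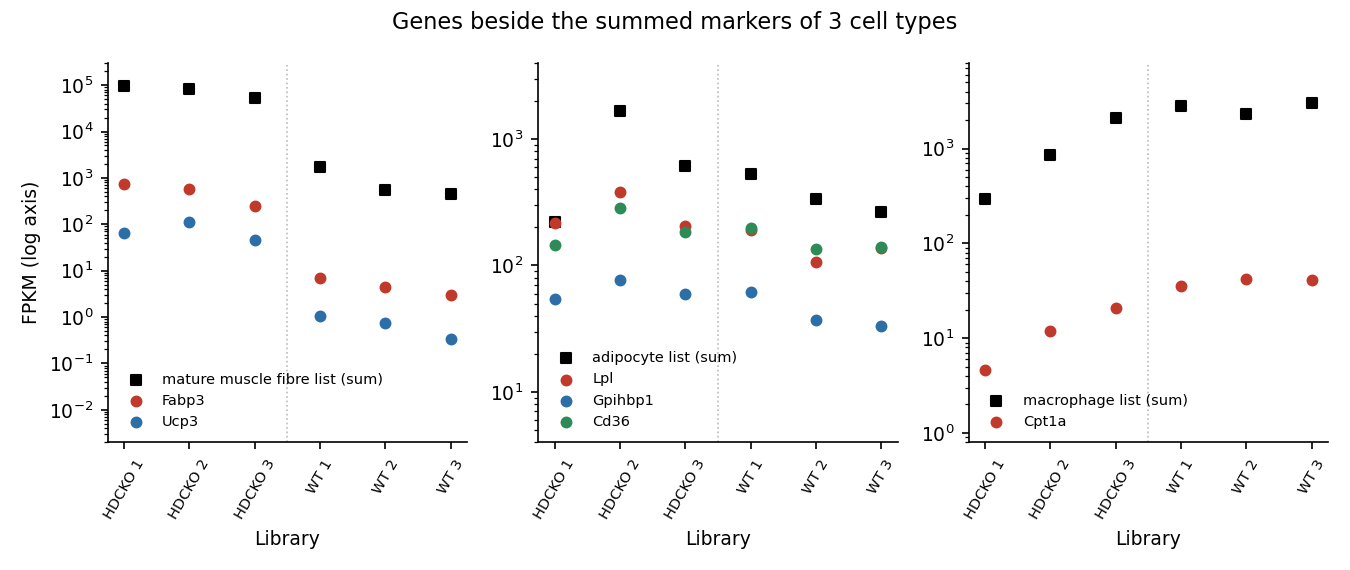
FPKM (log axis) per library of the summed fibre, adipocyte and macrophage markers (black squares) beside the genes set against them in the text (coloured points), HDCKO mice left of WT mice. Fabp3 and the fibre markers share their order in the HDCKO libraries, with the highest value in HDCKO mouse 1, while Ucp3 is highest in HDCKO mouse 2. Lpl, Gpihbp1 and Cd36 peak with the adipocyte markers in HDCKO mouse 2, and Cpt1a and the macrophage markers are lowest in HDCKO mouse 1.

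Against the fibre markers of the same library, the 9 tested genes fell into distinct ranges, and Cpt1b was left out because the 0.5 FPKM added sets most of its value. The difference between HDCKO and WT muscle was -0.40 for Fabp3 and -1.03 for Ucp3, and lay between -4.63 (Acadm) and -8.79 (Cpt1a) for the others. For those other 7 genes the groups did not overlap (exact permutation p = 0.1, adjusted p = 0.133 over 12 comparisons), so even Acadm, Hadha and Cpt2 rose by far less than the fibre transcripts did.

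The order of the levels differed between the genotypes. In HDCKO muscle it ran Fabp3, Lpl, Cd36, Acadm, Hadha, Ucp3, Gpihbp1, Cpt2, Cpt1a and Cpt1b, from highest to lowest mean FPKM. The ranges over mice overlapped for 5 of the 9 neighbouring pairs, namely those among the first 5 genes and that of Ucp3 with Gpihbp1. In WT muscle it ran Cd36, Lpl, Hadha, Gpihbp1, Cpt1a, Acadm, Cpt2, Fabp3, Ucp3 and Cpt1b, and 3 of the 9 neighbouring pairs overlapped, Cd36 with Lpl, Hadha with Gpihbp1 and Gpihbp1 with Cpt1a. Fabp3 thus headed the order in HDCKO muscle and stood below Cpt2 in WT muscle. The last place of Cpt1b is uncertain, since the treatment of reads it shares with Gm44502 is not given.

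The remaining genes of the path were read from 9 lists of 96 genes, of which 92 were tested, 43 rose, 22 fell and 27 did not pass, with a median log2 change of 0.50 against -0.50 for all genes tested. The shares called over all genes, 17.8% higher and 42.6% lower, are the background for each list. With median-of-ratios scaling 56 were called higher and 12 lower, and the number lower was 12 without HDCKO mouse 2 and 14 without WT mouse 2 or WT mouse 3. Of the 9 lists, mitochondrial beta-oxidation had the greatest share called higher, 13 of 15 genes with 0 lower and a median log2 change of 1.25. The fibre markers had 15 of 15 called higher and a median of 6.77. The genes of the 9 lists were not set against the fibre markers within each library, so whether any rise goes beyond theirs was not tested. Hadh, the short-chain hydroxyacyl-CoA dehydrogenase, rose by 1.78 on the log2 scale (limma adjusted p = 0.00113), and Decr1, the dienoyl-CoA reductase needed for unsaturated chains, rose by 1.81 (limma adjusted p = 0.00166). Over the alternatives tried, 12 to 15 of the 15 beta-oxidation genes were called higher and 0 lower.

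The carnitine list gave 3 of 7 tested genes higher, 3 lower and a median of 0.21, and its share called lower was close to the 42.6% of all genes. Crat, the carnitine acetyltransferase that buffers acetyl groups, had 96.1, 97.3 and 61.9 FPKM in HDCKO mice 1, 2 and 3, against 12.3, 13.1 and 13.4 FPKM in WT mice 1, 2 and 3, and rose (log2 change 2.65, limma adjusted p = 4.8e-04). Crot, the peroxisomal octanoyltransferase, rose by 0.63 (limma adjusted p = 0.00951). Cpt1c, the isoform best known in neurons, fell by 1.79 on the log2 scale (limma adjusted p = 0.00954), as Cpt1a did.

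Uptake and carrier genes other than Lpl, Gpihbp1, Cd36 and Fabp3, with Fabp4 and Fabp5 among them, gave 1 higher, 4 lower and 5 not called of 10, with a median of -0.93. These shares were near the 17.8% higher and 42.6% lower of all genes, so the count shows nothing particular to the list. Vldlr, a lipoprotein receptor that works with the lipase, rose by 1.92 (limma adjusted p = 0.00124). The fatty acid transport proteins Slc27a3 and Slc27a4 fell by 1.24 and 1.64 on the log2 scale (limma adjusted p = 0.00406 and 0.00424). Other members of that family, named after their values were seen, did not fall. Slc27a1 had 17.8, 38.5 and 19.6 FPKM in HDCKO mice 1, 2 and 3, against 14.7, 12.6 and 14 FPKM in WT mice 1, 2 and 3. Its log2 change of 0.77 did not pass (limma adjusted p = 0.0655). Slc27a6 was too low to be tested, with means of 0.579 FPKM in HDCKO and 0.247 FPKM in WT muscle. Angptl4, a secreted inhibitor of the lipase, was picked out after its values were seen. It had 8.81, 38.7 and 44.7 FPKM in HDCKO mice 1, 2 and 3, against 186, 154 and 131 FPKM in WT mice 1, 2 and 3, and fell by 2.61 on the log2 scale (limma adjusted p = 0.014). Its groups did not overlap.

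Acyl-CoA synthesis and hydrolysis gave 4 higher and 4 lower of 10, with a median of 0.21. The synthetases Acsl6 and Acsl1, which trap fatty acids as acyl-CoA, rose by 2.49 and 1.59 (limma adjusted p = 5.4e-04 and 0.00358). Acot13, a mitochondrial thioesterase, rose by 2.03 (limma adjusted p = 0.00385). The 4 called lower, named after their values were seen, were the synthetases Acsl4 and Acsl5, which fell by 1.65 and 1.79 on the log2 scale (limma adjusted p = 0.00429 and 0.0244), and the thioesterases Acot7 and Acot1, which fell by 1.25 and 1.37 (0.00445 and 0.0267). Synthetases thus moved in both directions. Acsl5 lost its call without HDCKO mouse 2 or any 1 WT mouse, and Acot1 after each of the 3 other scalings (-1.02 to -0.91) and without any 1 HDCKO mouse.

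Genes that set the malonyl-CoA brake on CPT1 gave 5 higher and 4 lower of 10, with a median of 1.14. Acacb, the carboxylase that makes malonyl-CoA at the mitochondrial surface, had 30.8, 30.5 and 21.1 FPKM in HDCKO mice 1, 2 and 3, against 1.71, 1.44 and 1.39 FPKM in WT mice 1, 2 and 3, and rose by 3.78 (limma adjusted p = 1.7e-04). Prkag3 and Prkaa2, which encode the AMPK gamma and alpha subunits typical of skeletal muscle, rose by 5.73 and 4.92 (limma adjusted p = 1.5e-04 and 2.1e-04). Mlycd, the decarboxylase that removes malonyl-CoA, was named after its values were seen and rose as well, by 2.57 (limma adjusted p = 8.7e-04), so that Acacb and Mlycd were both higher. Acaca, the other carboxylase of the list that makes malonyl-CoA, was also named after its values were seen and did not pass (log2 change -0.30, limma adjusted p = 0.307). The 4 called lower, also named after their values were seen, were the AMPK subunits Prkaa1, Prkab1, Prkag2 and Prkag1, with log2 changes of -1.36, -1.01, -0.60 and -0.49 (limma adjusted p = 0.00665, 0.0181, 0.0352 and 0.0247). With median-of-ratios scaling Prkab1 (-0.50), Prkag2 (-0.17) and Prkag1 (0.03) were not called. The lower count of this list ranged from 1 to 4 over the alternatives, with 1 without HDCKO mouse 2, WT mouse 2 or WT mouse 3 and 2 without HDCKO mouse 1 or WT mouse 1, and the higher count was 5 in each.

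PPARs and their partners gave 8 higher, 1 lower and 3 not called of 12, with a median of 1.26. Perm1, a muscle regulator of oxidative genes, rose by 5.14, Rxrg, a partner receptor of the PPARs, by 4.09, and Lpin1, a co-regulator and phosphatidate phosphatase, by 3.69 (limma adjusted p = 6.5e-04, 2.8e-04 and 3.2e-04). The PPAR genes themselves, named after their values were seen, parted. Ppara rose by 1.97 (limma adjusted p = 0.00318), with means of 1.86 FPKM in HDCKO and 0.0816 FPKM in WT muscle. Ppard was the 1 called lower (log2 change -0.66, limma adjusted p = 0.0144), and Pparg did not pass (-0.65, 0.303). The lower count of this list ranged from 0 to 1 over the alternatives. The list of lipid droplet and lipolysis genes gave 4 higher, 3 lower and 6 not called of 13, with a median of -0.08. Fitm1, a muscle protein of droplet formation, rose by 5.98 (limma adjusted p = 1.7e-04), Plin5, the droplet coat of oxidative tissue, by 3.29 (0.00285) and Fitm2 by 1.86 (0.00389). The 3 called lower were named after their values were seen. Plin2, the droplet coat found in most cell types, had 11.6, 30.6 and 63.5 FPKM in HDCKO mice 1, 2 and 3, against 232, 349 and 269 FPKM in WT mice 1, 2 and 3, and fell by 3.28 on the log2 scale (limma adjusted p = 0.00667). G0s2, an inhibitor of the lipase ATGL, fell by 1.60 (0.0099), and Plin3 fell by 0.66 (0.0115). G0s2 (-1.08) and Plin3 (-0.14) were not called after median-of-ratios scaling.

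Peroxisomal oxidation gave 4 higher, 0 lower and 6 not called of 10, with a median of 0.30, and the higher count ranged from 1 to 7 over the alternatives. Amacr, a racemase for branched chains, rose by 1.07 (limma adjusted p = 0.00384), Ehhadh, the peroxisomal bifunctional enzyme, by 1.43 (0.0211) and Abcd3, a peroxisomal importer, by 0.46 (0.0256). Ehhadh lost its call without HDCKO mouse 2 or any 1 WT mouse, and Abcd3 without HDCKO mouse 1, HDCKO mouse 2 or any 1 WT mouse. Of 5 other uncoupling-type carriers, 1 rose, 3 fell (Ucp2 among them) and 1 did not pass, with a median of -0.95. Slc25a30 fell by 1.15 and Slc25a14 by 0.95 on the log2 scale (limma adjusted p = 0.00835 and 0.0226), and Slc25a27 rose by 0.69 (limma adjusted p = 0.0121). Slc25a14 lost its call after median-of-ratios scaling (-0.54) and in every omission of 1 library but that of HDCKO mouse 3. Slc25a27 lost its call after quantile normalization (0.82) and without WT mouse 3 (0.63).

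For each of the 9 tested genes, the 2 non-members whose profile lay closest over the 6 libraries were found by the root mean square distance of log2(FPKM + 0.5), each profile centred on its own mean. Fabp3 lay closest to Cox8b (0.15) and Cox6a2 (0.16), which encode muscle-type subunits of cytochrome c oxidase. Ucp3 lay closest to Fitm1 (0.30) and Hspb6 (0.31) (Hspb6 is a small heat shock protein of muscle), and had the greatest such distances of the 9. Hadha lay closest to Fastk and Rdh14 (0.04 each), Acadm to Mgst3 (0.06) and C2cd2 (0.08), and Cpt2 to Anapc13 and Dym (0.07 each). Cpt1a lay closest to Coro1b, an actin regulator, and Irak4, a kinase of innate immune signalling (0.06 each). Lpl lay closest to Maob (0.16) and Gsn (0.17), Gpihbp1 to Nr1h3 (0.15) and Top1mt (0.16), and Cd36 to Galnt15 (0.14) and Agt (0.16). These distances describe 6 libraries in 2 groups, where many of the 13288 genes have alike profiles.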

How the data were processed

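Each library was made from hind limb muscle RNA of 1 mouse, per the labels. Per the submitters' processing notes, the tools included FastQC 0.11.9, HISAT2 2.1.0, HTSeq 0.11.2, STAR 2.7.11b and DESeq2 1.22.2 with GRCm39. The sources used here do not give the aligner behind the values, the gene annotation, the use of strand or the treatment of shared reads. The authors deposited FPKM values for 25572 genes. The test was limma-trend (limma 3.58.1, R 4.3.3) on log2(FPKM + 0.5) over the 6 libraries, with no covariate, in genes averaging 0.5 FPKM or more, two-sided, with Benjamini-Hochberg adjustment over 13288 genes and a threshold of 0.05. Log2 changes are HDCKO minus WT and are damped for low genes. Ratios were tested by exact two-sided permutation over the 6 libraries. Fragments were recovered from the step between the deposited FPKM values, up to a factor common to all libraries, and they entered 1 alternative. A solution was found for 99.995% of genes with at least 3 values above 0, a share that does not test the recovery where few values are above 0. Replicates are numbered mice. Only the limma fit was run on simulated data, in which few genes changed and all of them rose. That run does not bear on the scaling of these libraries or on the other steps. Coordinates are from GENCODE on GRCm39. Members, lists and tests were chosen with earlier results of these data known. Named were all members, up to 3 genes per list with the smallest p, the partners in ratios and the nearest profiles. Chosen after their values were seen were Angptl4, Slc27a1, Slc27a6, Mlycd, Acaca, the PPAR genes, Lyz2, C1qa, C1qb, Lum, Dpt and the genes called lower in 3 lists. Tmlhe, 1 listed gene, is not analysed here. The alternatives were 2 other pseudocounts, no filter, 3 scalings, array weights, a replicate block and omission of each library.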

Additional observations from a re-analysis of the deposited data

How the results depend on the processing

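Fabp3, Ucp3, Acadm, Hadha and Cpt2 kept their direction and their call under all 15 alternatives, and Cpt1a kept its direction. Members called lower numbered 0 to 1 when 1 library was left out. Without 1 library, the log2 change was 0.57 to 1.08 for Lpl, 0.39 to 0.83 for Gpihbp1, 0.07 to 0.55 for Cd36 and -2.32 to -1.30 for Cpt1a. With median-of-ratios scaling, Lpl changed by 1.39 and Gpihbp1 by 1.09, 3457 genes were called lower in all, and 12 pathway genes were called lower. With the fibre list and mitochondrial genes left out of library sums, Lpl changed by 1.26 and Gpihbp1 by 0.97, 3250 genes were called lower in all, and 13 pathway genes. After quantile normalization Lpl changed by 1.11, Gpihbp1 by 0.94, the Hadha to Hadhb ratio by -0.79 and Fabp3 relative to fibre markers by 0.23. With limma array weights, whose estimation stopped before it converged, 8 members were called higher in place of 5, Lpl changed by 1.30, Gpihbp1 by 0.75, Cd36 by 0.78 and Fabp4 by 0.25. With a pseudocount of 0.1 FPKM the Cpt1b to Cpt1a ratio changed by 3.10 and the Cpt1b to Cpt2 ratio by 0.05, against -0.75 with 0.5 FPKM. Prkag1 changed by 0.03 with median-of-ratios scaling. Fabp4 changed by 0.06 with median-of-ratios scaling and by -0.89 to 0.04 without 1 library, and Lpl relative to adipocyte markers by -0.23 to 0.72 without 1 library. The cause of these shifts was not tested. All genes called lower numbered 2507 to 7288 with 1 library left out, and pathway genes called lower 12 to 24.

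The mouse numbers did not pair the samples: same-numbered mice had correlations of deviations of 0.07 to 0.14, over 0.1 for 2 of 3 numbers. With a replicate block, 5 members were called higher and 1 lower, 42 and 19 pathway genes, and 2081 and 5089 of all genes; among the genes named, Abcd3 (limma adjusted p = 0.0652), Prkag1 (0.0578) and Prkag2 (0.0605) lost their call with the block. Limma-voom on the recovered fragments, chosen after seeing the data, called 5 members higher and 1 lower, 2425 genes higher and 5358 lower. With 3 mice a group, exact tests cannot go below 0.1. WT values of Ucp3, Fabp3 and above all Cpt1b rest on few fragments, so their fold is uncertain, and a low Cpt1b cannot be told apart from the handling of shared reads.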
